A study of Mus musculus with 12 samples.

Results

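The caveolin, cavin and EHD gene families were followed in developing skeletal muscle. Their 10 members, the caveolins *Cav1*, *Cav2* and *Cav3*, the cavins *Cavin1*, *Cavin2*, *Cavin3* and *Cavin4*, and the EHD genes *Ehd1*, *Ehd2* and *Ehd4*, were taken by symbol from the 55450 genes of the deposited table, and all 10 were among the 19276 genes with enough reads to be tested. RNA was prepared from pieces of the tibialis anterior (TA), a shin muscle, of WT (wild-type) mice on the 129Pas background. Each of the ages E18.5 (before birth), 2 wks and 7 wks was represented by 4 mice, each with a library of its own. No group carried a transgene, a deletion or a treatment, and a piece of muscle holds vessels, nerve, connective tissue and fat beside the fibres.

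Caveolae are small flask-shaped pits of the plasma membrane. Caveolins insert into the inner leaflet and form their scaffold, cavins coat them from the cytosol, and EHD proteins are membrane-binding ATPases, of which EHD2 sits at the neck of the pit and holds it at the surface. Caveolin-1, with its partner caveolin-2, builds caveolae in endothelium, fat and fibroblasts, whereas caveolin-3 is the muscle form. Cavin-4 is likewise the cavin of striated muscle. In muscle fibres, caveola-like structures take part in the growth of the T-tubules, the inward folds of the surface membrane that carry excitation to the sarcoplasmic reticulum.

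*Cav2* and *Cav1* are neighbours on the plus strand of chromosome 6, at chr6:17281185-17289130 and chr6:17306335-17341328 of GRCm38, with 17204 bases between the end of the first and the start of the second. *Cav3* lies on the same chromosome at chr6:112459505-112472872, and *Cavin4* at chr4:48663514-48673492. The other members are at chr11:100956736-100970617 (*Cavin1*), chr1:51289126-51302960 (*Cavin2*), chr7:105480616-105482197 (*Cavin3*), chr19:6276896-6300096 (*Ehd1*), chr7:15946963-15967535 (*Ehd2*) and chr2:120089487-120154575 (*Ehd4*). The RefSeq promoter table for GRCm38.p6 has entries for 8 of the 10 members, and lacks *Cavin3* and *Ehd1*. The windows of the muscle forms *Cav3* and *Cavin4* and of the neighbours *Cav2* and *Cav1*, whose RNA ratios to each other and to other members are followed in the results, are printed here. Each holds 250 bases before and 50 bases from the start of the gene, on the plus strand, at chr6:112459255-112459554, chr4:48663264-48663563, chr6:17280935-17281234 and chr6:17306085-17306384 in that order. Capitals mark the E-box CANNTG, the letters that MyoD-family and other basic helix-loop-helix factors can bind.
Cav3: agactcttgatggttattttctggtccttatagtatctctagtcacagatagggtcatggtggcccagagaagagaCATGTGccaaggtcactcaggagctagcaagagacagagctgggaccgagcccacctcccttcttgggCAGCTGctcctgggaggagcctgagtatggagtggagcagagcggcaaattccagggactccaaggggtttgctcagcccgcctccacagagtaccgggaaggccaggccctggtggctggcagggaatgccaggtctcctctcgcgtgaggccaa
Cavin4: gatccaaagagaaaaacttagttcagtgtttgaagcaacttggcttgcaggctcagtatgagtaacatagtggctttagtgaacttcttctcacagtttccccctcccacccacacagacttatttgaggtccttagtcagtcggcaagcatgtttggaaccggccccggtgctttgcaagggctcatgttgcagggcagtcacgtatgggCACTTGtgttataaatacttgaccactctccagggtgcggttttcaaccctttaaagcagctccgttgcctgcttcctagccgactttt
Cav2: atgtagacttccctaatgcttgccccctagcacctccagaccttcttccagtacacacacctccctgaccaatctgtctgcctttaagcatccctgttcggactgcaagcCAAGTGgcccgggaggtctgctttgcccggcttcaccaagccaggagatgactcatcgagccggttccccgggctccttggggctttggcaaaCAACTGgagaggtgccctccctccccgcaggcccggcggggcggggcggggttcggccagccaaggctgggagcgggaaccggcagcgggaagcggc
Cav1: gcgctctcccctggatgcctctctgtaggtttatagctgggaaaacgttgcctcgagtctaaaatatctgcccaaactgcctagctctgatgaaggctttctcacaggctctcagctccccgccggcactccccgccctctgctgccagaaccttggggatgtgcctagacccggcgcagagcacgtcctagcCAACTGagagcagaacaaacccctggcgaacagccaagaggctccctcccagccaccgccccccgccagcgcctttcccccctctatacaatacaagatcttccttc

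The *Cav3* window held an E-box 106 bases before the start that reads CAGCTG, the form MyoD prefers, and another, CATGTG, 174 bases before it. The only E-box of the *Cavin4* window, CACTTG, lay 39 bases before the start. *Cav2* had E-boxes at 140 and 47 bases and *Cav1* at 57 bases before the start. A second annotated start of *Cav1* had one at 158 bases, and *Ehd2* had a CAGCTG at 204 bases, while no E-box was found in the windows of *Cavin1*, *Cavin2* and *Ehd4*. These letters are common, since on both strands CANNTG occurs in 72.3% and CAGCTG, which is one of its forms, in 16.3% of all 32851 windows of the table. The MCAT motif CATTCC, in 14.7% of windows, was found in *Cav3* (as GGAATG, 19 bases after the start) and *Cavin1*. The CArG box and the MEF2 site, in 1.63% and 3.19% of windows, were found in none of the members' windows. A match is a description of the letters and shows no binding.

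The values are reads counted per gene, given as CPM (counts scaled to a common library size) after TMM scaling, which sets libraries against each other by the bulk of their genes. Levels are compared between genes only as RPKM, that is CPM per kilobase of exon. Library totals ran from 63018968 to 123449246 counts, and every member had at least 238 counts in every library, where the error of counting was below the spread among the mice of an age. The 20 most abundant genes took 8.38% to 11.3% of counts in E18.5 libraries and 32.2% to 35.3% in 2 wks libraries, and after 7 wks 36.3% to 37.7%. The choice of scale therefore matters: over all genes in the test, the median log2 change from E18.5 to 2 wks was -0.09 under TMM and -1.02 when libraries were scaled to total counts, from 2 to 7 wks it was -0.03 and -0.38, and from E18.5 to 7 wks -0.09 and -1.36. Libraries also differed in base composition. GC-rich minus GC-poor genes (at least 55.1% against at most 44.2% GC, 2367 genes each) gave a difference of medians, each gene centred on its mean over the libraries, of -1.84 in replicate 1 and -0.12 in replicate 2 of E18.5, on the log2 scale, 0.61 to 0.83 at 2 wks, and -0.28 in replicate 1 to 0.73 in replicate 3 at 7 wks. All 8 muscle fibre markers were present in every library and higher at 2 wks. Their summed level was 10547 to 20832 CPM at E18.5, highest in replicate 2, and 183192 CPM or more in every later library. Adipocyte markers summed to 232, 179, 1971 and 2699 CPM in E18.5 replicates 1 to 4, 419 to 483 CPM at 2 wks and 309 to 411 CPM at 7 wks. Nearly all of the later sums was *Fabp4*, with means of 442 CPM at 2 wks and 365 CPM at 7 wks. *Adipoq* had 6.37 to 213 CPM at E18.5, but at most 3.25 CPM at 2 wks and 1.80 CPM at 7 wks. *Plin1* had 2.90 to 97.2 CPM, then at most 1.84 and 1.22 CPM, while *Cidec* and *Lep* overlapped between E18.5 and the later ages. In a piece of tissue, fewer cells of a type and less RNA per cell cannot be told apart.

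Per length of transcript, *Cav1* was the most abundant member at E18.5 (104 ± 22.8 RPKM, SD, n = 4) and at 2 wks (99.8 ± 13.1 RPKM), and *Cavin4* at 7 wks (82.5 ± 15.2 RPKM). *Cavin4* (67.0 RPKM), *Cav3* (52.3 RPKM) and *Cavin1* (47.3 RPKM) followed *Cav1* at E18.5, and the ranges of each pair of neighbours in this order overlapped. At 2 wks *Cav3* stood second at 86.7 RPKM, overlapping *Cav1* but apart from *Cavin4* (65.7 RPKM), which was apart from *Cavin1* (53.6 RPKM). At 7 wks *Cavin4*, *Cav3* (67.5 RPKM) and *Cav1* (65.8 RPKM) overlapped in this order, and all 3 were above *Cavin1* (30.6 RPKM) in every library. The lower places were held by *Ehd2* (26.1, 39.4 and 17.6 RPKM at the 3 ages), *Ehd4* (24.9, 24.3 and 15.5 RPKM), *Cavin2* (17.7, 22.6 and 17.3 RPKM) and *Cav2* (12.4, 19.3 and 17.8 RPKM). *Ehd1* (5.94, 9.18 and 7.29 RPKM) and *Cavin3* (2.64, 6.91 and 2.31 RPKM) came last, and *Ehd1* was above *Cavin3* in every library at 2 and at 7 wks. The exon length used for *Cavin3*, 3069 bases in GENCODE, exceeds its whole span of 1582 bases in RefSeq, so its level per length is lower here than the shorter model would give. Its place below *Ehd1*, at least at 2 wks, rests on the longer model.

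From E18.5 to 2 wks, 5 of the 10 members rose and none fell by edgeR's quasi-likelihood test (adjusted p under 0.05), where 31.5% of all tested genes were called higher and 34.2% lower. The risers were *Cav2*, *Cav3*, *Cavin3*, *Ehd1* and *Ehd2*. In 3 members, *Cavin1*, *Cavin3* and *Ehd2*, every 2 wks library was above every E18.5 library, and in 0 below, as in 28.9% and 32.4% of tested genes. From 2 to 7 wks 5 members fell and none rose, where 13.9% of tested genes were called lower and 13.5% higher, and these were *Cav1*, *Cavin1*, *Cavin3*, *Ehd2* and *Ehd4*. In these 5 the libraries of the ages did not overlap, against 16.4% of tested genes lower and 17.3% higher in this way. From E18.5 to 7 wks *Cav1*, *Cavin1*, *Ehd2* and *Ehd4* were lower (4 of 10, where 37.1% of tested genes were called lower) and no member was higher (34.3%). The libraries of *Cavin1*, *Ehd2* and *Ehd4* lay apart, all lower, against 33.3% of tested genes lower and 30.2% higher. The median log2 fold change of the members was 0.47, -0.49 and -0.11 in the 3 comparisons, which share the libraries of each age. The count at 2 wks rests on the scale: with libraries scaled to total counts 0 members were higher and 5 lower (*Cav1*, *Cavin1*, *Cavin2*, *Cavin4* and *Ehd4*). After correction of each library for its GC trend, 3 were higher (*Cav2*, *Cavin2* and *Cavin3*) and 2 lower (*Cavin1* and *Ehd4*). The falls of *Cavin1*, *Cavin3* and *Ehd2* after 2 wks were called in all 24 alternative fits, each library left out in turn included.

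**Figure D1:**
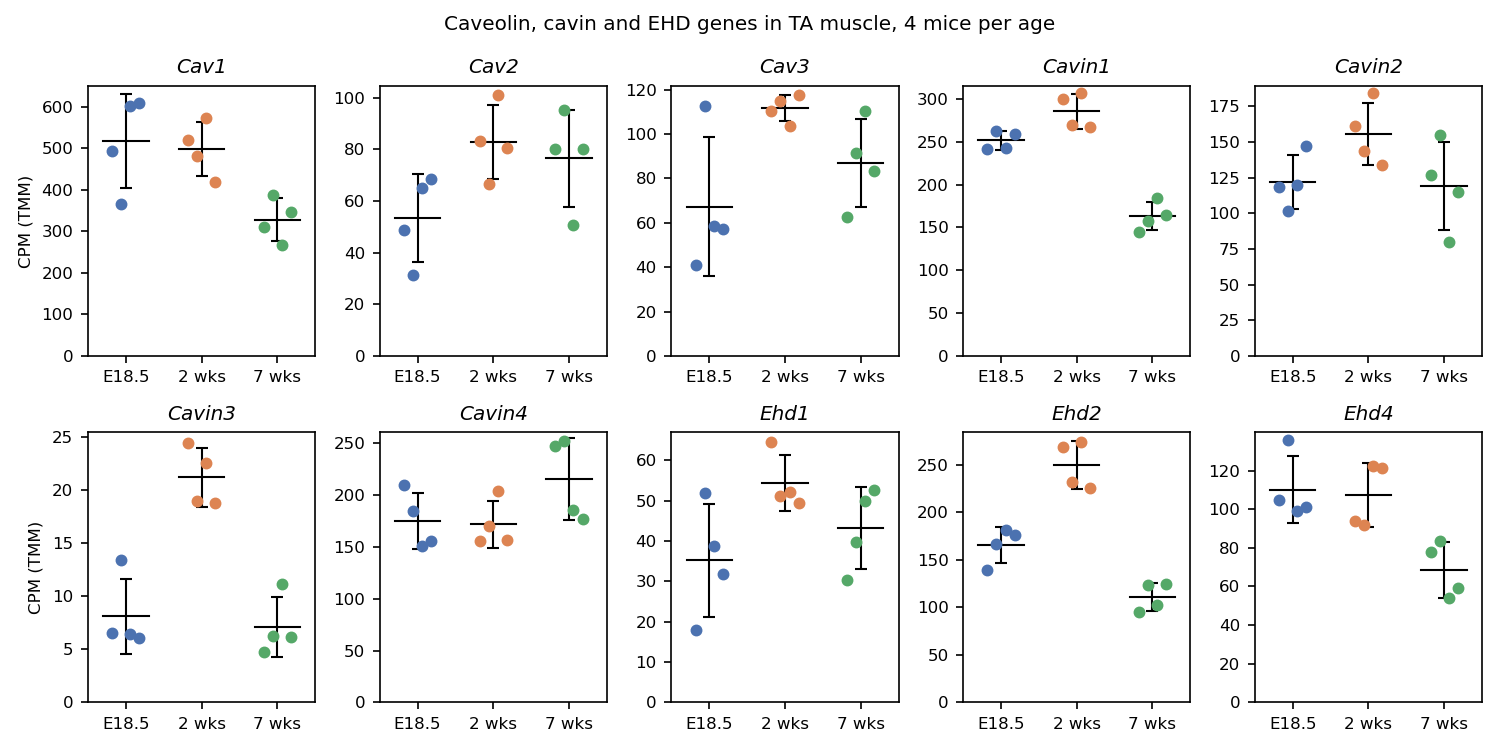
Level of each member in CPM after TMM scaling (vertical axis, linear from 0) at E18.5, 2 wks and 7 wks; points are mice, bars the mean and SD of 4. *Cavin3* and *Ehd2* at 2 wks lie above every library of the other ages, and *Cavin1* at 7 wks, at 145 to 184 CPM, lies below every library of the other ages.

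The level of *Cav1*, the structural caveolin of non-muscle cells, differed between E18.5 and 2 wks by less than the spread between mice, and fell by 0.60 on the log2 scale afterwards. The E18.5 libraries had 494, 366, 602 and 609 CPM, the 2 wks libraries 520, 481, 574 and 418 CPM, and the 7 wks libraries 311, 388, 268 and 347 CPM. Every 7 wks value was below every 2 wks value, while 1 E18.5 library, replicate 2, was lower than the highest 7 wks library. In edgeR the change to 2 wks was -0.06 ± 0.19 (log2, SE, adjusted p = 0.807), the change from 2 to 7 wks -0.60 ± 0.19 (adjusted p = 0.0302) and that from E18.5 to 7 wks -0.66 (adjusted p = 0.00651). The call after 2 wks was lost when any of 2 wks replicates 1, 2 and 3 or 7 wks replicates 1, 3 and 4 was left out, at changes of -0.69 to -0.51 over all single omissions. It was lost also with the replicate number as a block and with the trend over transcript length removed, and was called in 16 of 24 alternative fits. *Cav1* was highest in the E18.5 libraries with the most adipocyte marker RNA (replicates 3 and 4). Without these, the change to 2 wks was 0.21 (adjusted p = 0.422) and the change from E18.5 to 7 wks -0.39 (adjusted p = 0.122, edgeR), so the latter call was lost. The fall after 2 wks was called also without them.

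*Cav2*, whose product needs caveolin-1 to leave the Golgi, rose by 0.63 ± 0.24 from E18.5 to 2 wks (log2, edgeR adjusted p = 0.0341). The values were 48.7, 31.4, 65.0 and 68.5 CPM at E18.5, 83.1, 66.5, 101 and 80.7 CPM at 2 wks and 80.4, 95.4, 50.6 and 80.3 CPM at 7 wks. The ages overlapped, with replicate 2 of E18.5 lowest and replicate 3 of 2 wks highest. No further change was called to 7 wks (-0.11, adjusted p = 0.765). The rise was called in 15 of 24 alternative fits and was not called without any of E18.5 replicates 1 and 2 or 2 wks replicates 3 and 4, with changes of 0.45 to 0.78 over all single omissions.

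*Cav2* increased relative to *Cav1* from E18.5 to 2 wks and to 7 wks, with no overlap between the libraries but without passing adjustment. The log2 ratio of their counts within a library does not depend on how libraries are scaled. It averaged -3.31 ± 0.17, -2.59 ± 0.21 and -2.12 ± 0.20 at the 3 ages in order (SD, n = 4). Per length of transcript this was 0.117, 0.192 and 0.267 *Cav2* per *Cav1*. In all 16 pairs of a 2 wks and an E18.5 library the later ratio was higher, as it was in all 16 pairs of 7 wks and E18.5, and in 15 of 16 pairs of 7 wks and 2 wks. The changes were 0.72 (two-sided exact permutation p = 0.0286), 1.19 (p = 0.0286) and 0.47 (p = 0.0571). With 4 mice against 4, 0.0286 is the smallest p this test can give, and over the 30 ratio tests made here, 10 ratios in 3 comparisons, it became an adjusted p of 0.0857, so no ratio passed after adjustment. Both genes are poor in GC (43.8% for *Cav1* and 38.2% for *Cav2*), and with the GC trend removed the changes were 0.77, 1.14 and 0.37. Leaving out any single library gave 0.64 to 0.80 for the first change and 1.11 to 1.28 from E18.5 to 7 wks. Endothelial markers, which mark cells rich in both caveolins, summed to 387 to 577 CPM at E18.5, 1014 to 1205 CPM at 2 wks and 677 to 983 CPM at 7 wks. Of the 9, 7 rose to 2 wks (31.5% of tested genes) and 3 fell afterwards (13.9%), and the part of these cells in the ratio was not tested.

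**Figure D2:**
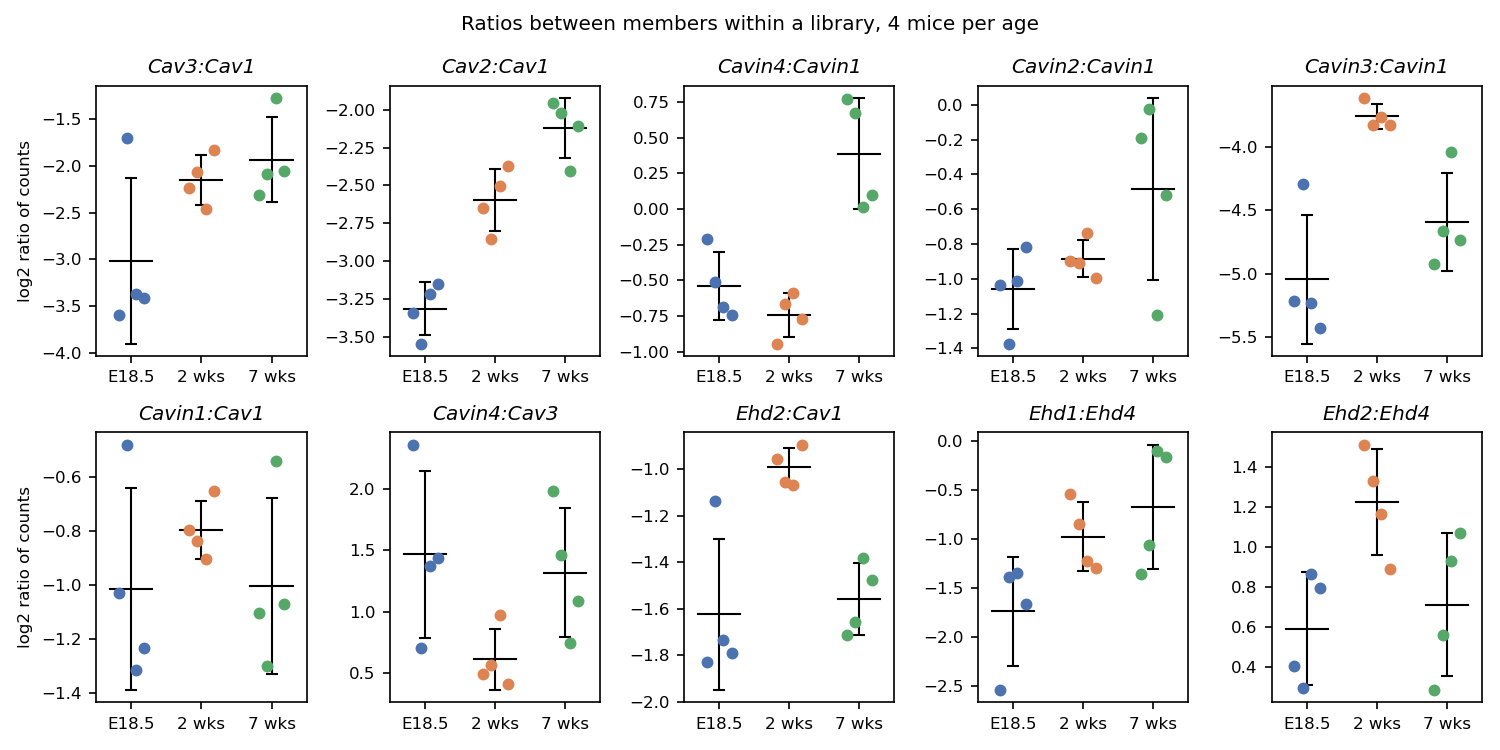
Log2 ratio of the counts of 2 members in the same library (vertical axis) at the 3 ages, for 10 pairs; points are mice, bars the mean and SD of 4. *Cav2* to *Cav1* is higher in every 2 wks and 7 wks library than in any E18.5 library, while the 2 later ages overlap, and *Cavin4* to *Cavin1* is higher in every 7 wks library than in any earlier one.

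*Cav3*, the caveolin of muscle fibres, rose by 0.73 ± 0.26 to 2 wks (log2, edgeR adjusted p = 0.0233). It had 40.8, 113, 58.4 and 57.2 CPM at E18.5, 110, 115, 104 and 117 CPM at 2 wks, and 62.7, 91.4, 110 and 83.2 CPM at 7 wks. The 2 wks libraries lay close together, whereas replicate 2 of E18.5 was at their level and apart from its own age. The change to 7 wks was -0.36 (adjusted p = 0.320) and that from E18.5 to 7 wks was not called either. Without E18.5 replicate 2, the rise to 2 wks was 1.1. The call was lost without E18.5 replicate 1, 3 or 4, and the change was 0.55 at the lowest of all single omissions. That replicate had the highest summed fibre markers of its age, 20832 CPM, and the least skew against GC-rich genes. *Cav3* is 55.7% GC, and with the GC trend removed its change to 2 wks was -0.07. The ratio of *Cav3* to *Cav1* averaged -3.02, -2.15 and -1.93 at the 3 ages. Its change to 2 wks of 0.87 was not past the threshold (exact permutation p = 0.143), and was -0.40 with the GC trend removed. Among the caveolins, the share of *Cav3* in the summed RPKM was 30.9% ± 14.1, 42.3% ± 4.44 and 44.5% ± 8.42 at the 3 ages (SD, n = 4), and that of *Cav1* 61.7% ± 12.1, 48.3% ± 3.89 and 43.6% ± 5.57.

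*Cavin1*, the cavin that every caveola needs, fell by 0.81 on the log2 scale from 2 to 7 wks. The libraries had 242, 263, 243 and 259 CPM at E18.5, 299, 270, 307 and 267 CPM at 2 wks and 145, 158, 184 and 165 CPM at 7 wks. All values at 2 wks were above all at E18.5, yet the change of 0.18 ± 0.13 did not pass the test (edgeR adjusted p = 0.221). All values at 7 wks were below those of both earlier ages, with changes of -0.81 ± 0.13 from 2 wks (adjusted p = 0.000634) and -0.63 from E18.5 (adjusted p = 0.000557). The change after 2 wks was -0.52 after GC correction and -1.16 when scaled to total counts, and called in both. With 57.3% GC, *Cavin1* is the most GC-rich member, and its change to 2 wks was -0.93, a called fall, with the GC trend removed. The log2 ratio of *Cavin1* to *Cav1* averaged -1.01 ± 0.38, -0.80 ± 0.11 and -1.002 ± 0.33 (SD, n = 4). Its changes did not pass the threshold (exact permutation p = 0.286, 0.286 and 0.971), although with the GC trend removed it changed by -1.26 to 2 wks.

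*Cavin4*, found in the fibres of striated muscle, was not called in any comparison. Its values were 209, 184, 151 and 155 CPM at E18.5, 156, 170, 204 and 156 CPM at 2 wks and 247, 251, 186 and 176 CPM at 7 wks. The ages overlapped throughout, with changes of -0.03 to 2 wks (edgeR adjusted p = 0.896) and 0.33 ± 0.17 after 2 wks (adjusted p = 0.168). Over the same interval to 2 wks the summed fibre markers rose from at most 20832 to at least 183192 CPM. Against *Cavin1*, however, *Cavin4* increased after 2 wks. The log2 ratio of counts averaged -0.54 ± 0.24, -0.74 ± 0.15 and 0.39 ± 0.39 in age order (SD, n = 4), which per length is 1.41, 1.22 and 2.67 *Cavin4* per *Cavin1*. All 16 pairs were higher at 7 wks than at 2 wks, a 2.19-fold change of the ratio (exact permutation p = 0.0286, adjusted p = 0.0857), and all 16 were higher than at E18.5. The log2 change after 2 wks of 1.13 was 0.74 with the GC trend removed and 1.19 with the trend over transcript length removed. The change to 2 wks was -0.20 (p = 0.229, exact permutation), and 1.01 with the GC trend removed. The share of *Cavin4* in cavin RPKM was 49.6% ± 4.48, 44.1% ± 2.49 and 61.8% ± 4.30 in age order.

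**Figure D3:**
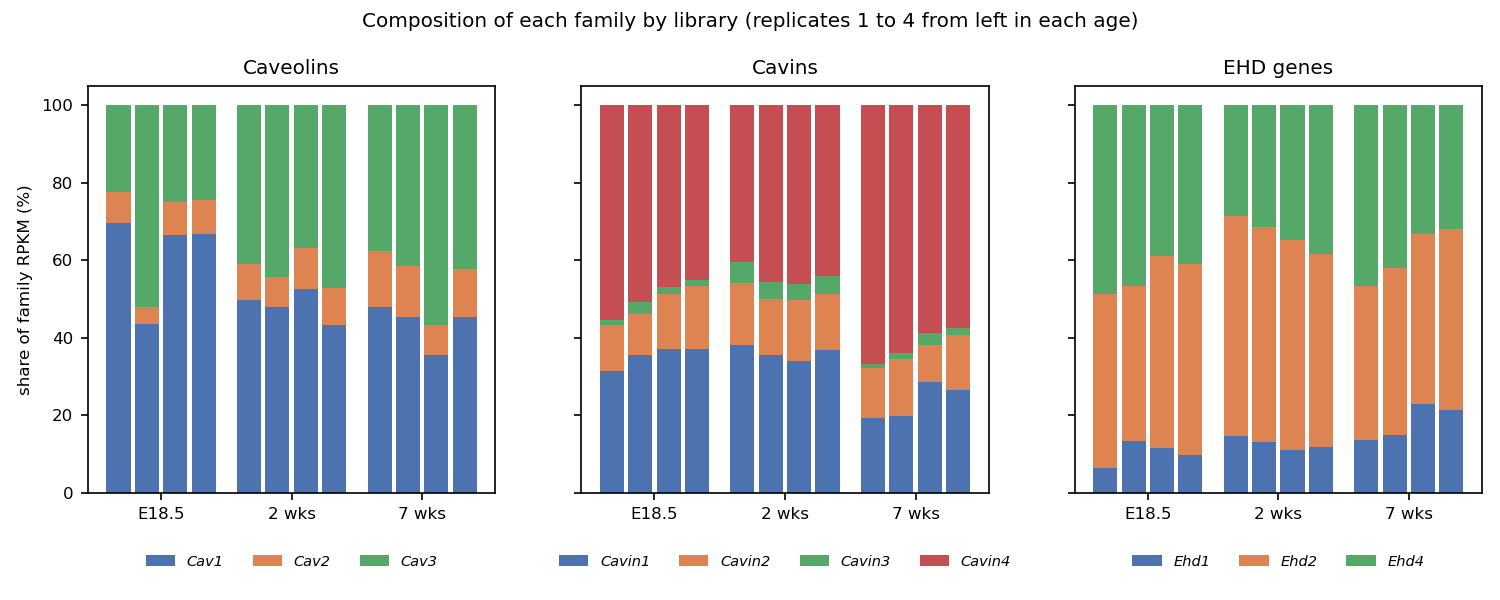
Share of each gene in the summed RPKM of its family (vertical axis, %) in every library, replicates 1 to 4 from left at each age. *Cavin4* takes 57.6% to 66.7% of cavin RPKM in the 7 wks libraries and 40.5% to 55.3% in the earlier ones, and *Cav3* takes 52.0% of caveolin RPKM in E18.5 replicate 2.

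*Cavin3*, which binds cavin-1 and protein kinase C delta, rose and fell most of all members under TMM, at the lowest level. It was at 6.51, 13.4, 6.45 and 6.03 CPM at E18.5, 24.4, 19.0, 22.6 and 18.8 CPM at 2 wks and 4.77, 6.23, 11.2 and 6.20 CPM at 7 wks. Each 2 wks library was above each library of the other ages, and replicate 2 of E18.5 and replicate 3 of 7 wks stood above their own ages. The change to 2 wks was 1.39 ± 0.29 (log2, SE, edgeR adjusted p = 0.000893) and that to 7 wks -1.58 ± 0.30 (adjusted p = 0.00189). The change after 2 wks minus the change before it was -2.96 (adjusted p = 0.000569), and with those of *Cavin1* (-0.99, adjusted p = 0.00353) and *Ehd2* it made 3 contrasts called lower and 0 higher among the members, where 21.6% of tested genes were lower and 16.8% higher. The contrast of *Cavin1* turned to 0.41 after GC correction, and was not called there or under total counts. The rise was called in 23 of 24 alternative fits, and under total counts it was 0.47 and not called. Without E18.5 replicate 2 it was 1.74. The same replicates that stood high, 2 at E18.5 and 3 at 7 wks, had the highest GC skew of their ages. With the GC trend removed the changes were 0.94 and -1.52, both called. The ratio of *Cavin3* to *Cavin1* rose by 1.28 and fell by 0.83 on the log2 scale, each with no overlap between the ages (exact permutation p = 0.0286, adjusted p = 0.0857). Exons of *Gm45667* on the opposite strand share 12.2% of the exon bases of *Cavin3*.

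*Cavin2*, a cavin that shapes the membrane curve of caveolae in vessels, ranged from 102 to 147 CPM at E18.5, 134 to 184 CPM at 2 wks and 79.7 to 155 CPM at 7 wks. The ages overlapped and no change was called (0.35, edgeR adjusted p = 0.124, and -0.38, adjusted p = 0.158). With the GC trend removed a rise of 0.79 and a fall of 0.57 on the log2 scale were called. Its ratio to *Cavin1* did not change past the threshold in any comparison (exact permutation p = 0.229, 0.200 and 0.114), at log2 changes of 0.17 to 2 wks, 0.40 after 2 wks and 0.57 from E18.5 to 7 wks. With the GC trend removed these were 1.73, -0.05 and 1.68.

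*Ehd2*, whose product gathers at the caveola neck, was likewise highest at 2 wks. The values were 139, 167, 181 and 176 CPM at E18.5, 268, 232, 274 and 225 CPM at 2 wks and 95.1, 123, 103 and 124 CPM at 7 wks. No ages overlapped: 2 wks was highest and 7 wks lowest in every library. *Ehd2* rose by 0.59 ± 0.15 (edgeR adjusted p = 0.00265), then fell by 1.17 on the log2 scale (SE 0.15, adjusted p = 0.000126), and at 7 wks was below E18.5 by a log2 change of -0.57 (adjusted p = 0.00288). The contrast between the intervals was -1.76 (adjusted p = 0.000203) and was called in all 23 alternative fits that give it. Scaled to total counts the rise became -0.34, and GC correction made it -0.12, neither of them called. The fall was -1.52 and -1.01 under these. Relative to *Cav1*, *Ehd2* went up by 0.63 and down by 0.57 (log2 ratio, exact permutation p = 0.0286 for each, adjusted p = 0.0857). With the GC trend removed the first change was -0.45 and the second -0.28.

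*Ehd4*, an EHD protein of early endosomes that also localises to caveolae, fell after 2 wks. It was at 105, 136, 99.1 and 101 CPM at E18.5, 94.0, 92.0, 122 and 121 CPM at 2 wks and 78.1, 83.3, 53.8 and 59.2 CPM at 7 wks. All 7 wks values were below the earlier ones, while the first 2 ages overlapped (-0.04, edgeR adjusted p = 0.863). The fall was -0.65 ± 0.18 from 2 wks (adjusted p = 0.0157) and -0.68 from E18.5 (adjusted p = 0.00332). It was called in 23 of 24 alternative fits from 2 wks, and not without 7 wks replicate 4, where it was -0.55. *Ehd1*, of the recycling endosome, ranged from 18.1 to 51.9 CPM at E18.5, 49.6 to 64.6 CPM at 2 wks and 30.4 to 52.7 CPM at 7 wks. Replicate 1 of E18.5 was far the lowest, and it also had the strongest skew against GC-rich genes. The rise to 2 wks of 0.63 (adjusted p = 0.0479) was close to the threshold. It was called in 5 of 24 alternative fits, and total-count scaling gave -0.30, as GC correction did. Among single omissions it was called without E18.5 replicate 2 or 7 wks replicate 1, and otherwise lost, at changes of 0.41 to 0.88. *Ehd1* relative to *Ehd4* rose by 0.76 to 2 wks in all 16 pairs (exact permutation p = 0.0286, adjusted p = 0.0857), a change of 0.09 with the GC trend removed. The ratio of *Ehd2* to *Ehd4* rose by 0.63 in all 16 pairs and then changed by -0.51 (exact permutation p = 0.0286 and 0.0857), and these changes were 0.26 and -0.39 with the GC trend removed. The remaining EHD gene, *Ehd3*, was level under TMM at 13.4, 13.7 and 13.3 CPM, with a change to 2 wks of 0.03 (edgeR adjusted p = 0.849). Scaled to total counts it averaged 22.4, 12.1 and 9.17 CPM in age order.

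**Figure D4:**
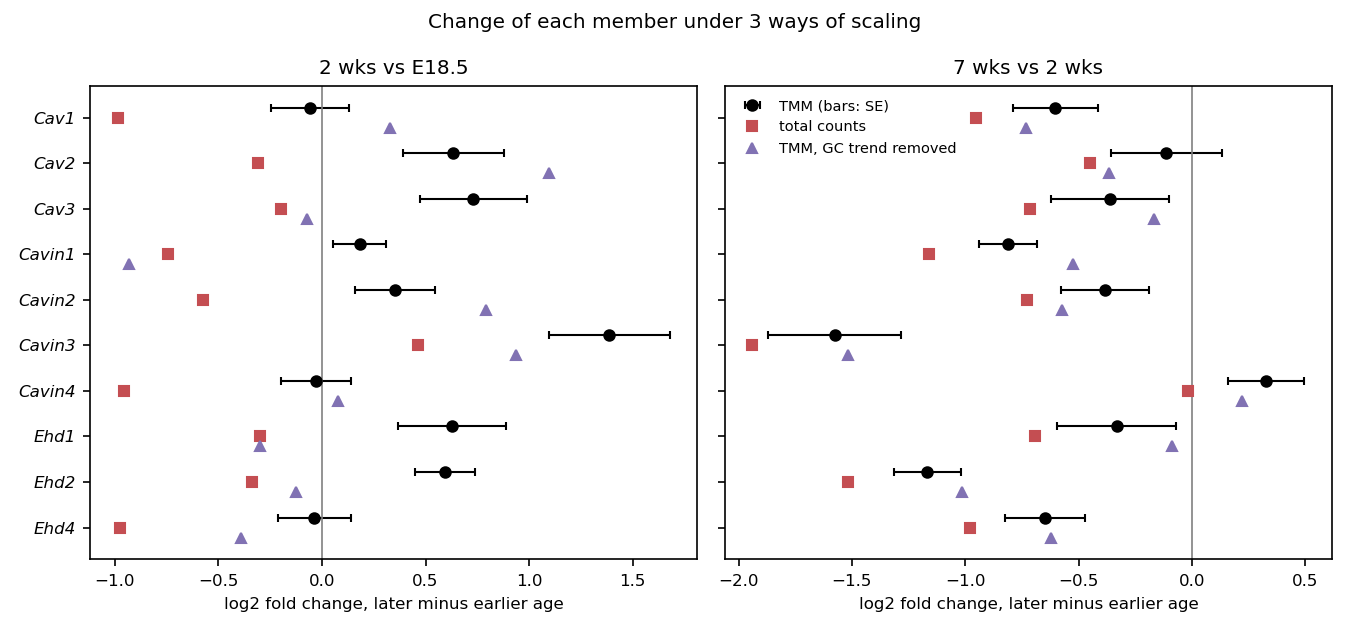
Log2 fold change of each member (horizontal axis, later minus earlier age) from E18.5 to 2 wks (left) and from 2 to 7 wks (right) under TMM (circles, bars are SE), total counts (squares) and TMM with the GC trend removed (triangles). On the left only *Cavin3* is above 0 in all 3, and on the right *Cavin1*, *Cavin3*, *Ehd2*, *Cav1* and *Ehd4* are at -0.52 or lower in all 3.

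The genes most like each member were sought among 8803 protein-coding genes by the root-mean-square (RMS) difference of log2 CPM over the 12 libraries, each gene centred on its mean. *Cav2* was nearest to *Fli1* (0.22) and *Kdr* (0.24), and *Kdr* is also on the endothelium list. The nearest to *Cavin2* were *Ets1* (0.11) and *Itga1* (0.14), to *Cav1* *Eogt* (0.18) and *4930523C07Rik* (0.19), and to *Cavin1* *Ralb* (0.14) and *Mpg* (0.15). *Cav3* was near to *Mtch1* (0.14). *Cavin4* was nearest to *Zfp143* (0.12) and *Uso1* (0.12), and *Cavin3* to *Lmna* (0.24) and *Ptms* (0.29). *Ehd1* was nearest to *Ehmt2* and *Zfp276* (both 0.11), *Ehd2* to *Neurl1b* (0.15) and *Spata13* (0.18), and *Ehd4* to *Etv6* (0.15) and *Endod1* (0.16). Among the members themselves, *Cav3* and *Ehd1* (0.22) and *Cavin1* and *Ehd2* (0.23) were the closest pairs. *Cavin4* was far from all others, with *Cavin2* its nearest at 0.39, more than its own RMS deviation of 0.24. The libraries share age and base composition in these values.

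Of 14 genes of caveolin-3 partners and the T-tubule, all tested, 9 rose to 2 wks and 0 fell, where 31.5% of tested genes rose and 34.2% fell, with a median log2 fold change of 1.49 beside 0.73 for *Cav3* and -0.03 for *Cavin4*. The largest rises were those of the sarcoglycan *Sgca* (3.20), the voltage sensor *Cacna1s* (3.09) and the calcium release channel *Ryr1* (2.96). *Dysf*, a membrane repair protein, rose by 1.16. With libraries scaled to total counts, *Dysf* averaged 179 CPM at E18.5 and 210 CPM at 2 wks. On that scale *Sgca* averaged 41.1 and 199 CPM, *Cacna1s* 195 and 865 CPM and *Ryr1* 505 and 2042 CPM. After 2 wks 5 of the 14 rose and 0 fell (13.5% and 13.9% of tested genes), and at 7 wks 13 were called above E18.5 (34.3%). Of 15 genes of the caveola neck and of EHD partners, 14 were tested, since *Fer1l5* had too few reads. To 2 wks 5 rose and 4 fell (median -0.24), close to the shares of all tested genes. The rises were led by the membrane-bending F-BAR protein *Pacsin3* (2.48 ± 0.30, edgeR adjusted p = 1.15e-05), the EHD-binding *Ehbp1l1* (1.54) and the fission GTPase *Dnm2* (1.01). The size of these rises depends on the scale: as CPM of total counts, *Pacsin3* averaged 81.8 at E18.5 and 238 at 2 wks and *Ehbp1l1* 311 and 470, but *Dnm2* 62.1 and 65.3, and *Bin1*, another of the 5, 501 and 446. The falls were led by *Ehbp1* (-1.19), *Rab11fip2* (-1.17) and *Myof* (-0.80). *Pacsin3* was at 32.7 to 84.5 CPM at E18.5, 214 to 340 CPM at 2 wks and 226 to 432 CPM at 7 wks, with no change called after 2 wks (0.21, adjusted p = 0.625). After 2 wks 4 of the 14 rose and 1 fell (13.5% and 13.9% of tested genes), and between E18.5 and 7 wks 6 rose and 5 fell (34.3% and 37.1%).

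Markers of other cells in the muscle moved between the ages as well, and their counts stand beside 31.5% of tested genes higher and 34.2% lower to 2 wks, and 13.5% and 13.9% afterwards. Mural cell markers rose to 2 wks (4 of 5, with 2 of 5 falling afterwards), with sums of 220 to 311, 859 to 1007 and 814 to 1030 CPM at the 3 ages. Fibroblast markers fell (4 of 6, then 2 of 6), with sums of 4629 to 8848, 3247 to 4841 and 819 to 2867 CPM, and 5 of 6 adipocyte markers fell to 2 wks and 0 afterwards. Myoblast markers fell in both intervals (3 of 5 each). Of the Schwann cell markers 3 of 5 rose and 1 fell to 2 wks, and 4 fell afterwards. Of the 4 tested cartilage and bone markers 1 rose and 3 fell, then 3 fell, and of the 5 red blood cell markers 2 and then 3 fell. Of 4 epidermis markers 3 fell to 2 wks, and 1 rose afterwards. E18.5 replicate 2, in which *Cav3* and *Cavin3* were highest for their age, also had the highest sums of cartilage and bone (140 CPM) and epidermis markers (48.9 CPM). Its myoblast (246 CPM), Schwann cell (94.2 CPM), mural cell (311 CPM) and fibroblast sums (8848 CPM) were the highest of that age as well. Its endothelium, adipocyte and red blood cell sums were not. The part of these cells in the members' changes was not tested.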

How the data were processed

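RNA was isolated with TRI Reagent, and polyA libraries were made with the TruSeq Stranded mRNA kit and read as paired ends of 100 bases. Per the labels, the submitters' processing notes name bcl2fastq 2.17.1.14, cutadapt 1.10, STAR 2.5.3a and HTSeq 0.6.1p1. The authors trimmed bases of quality under 20 and dropped reads under 40 bases. The notes name mm10 and the study's methods GRCm39. The annotation and strand setting of the counting are not given in the sources used here, so reads of opposite-strand genes, whose exons overlap those of 7 members, could not be told apart from theirs. The deposited table holds unnormalized counts of reads for each Ensembl gene.

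Groups were taken from the labels. Counts were TMM-scaled, and age, with no other term, was tested over the 12 libraries by the quasi-likelihood method of edgeR 4.0.16, run under R 4.3.3 with limma 3.58.1. filterByExpr kept 19276 genes, over which p-values were adjusted (Benjamini-Hochberg, threshold 0.05). The biological coefficient of variation was 0.279. A fold change is on the log2 scale, with SE from the F statistic. Ratios were log2 ratios of counts of whole counts compared by two-sided exact permutation over the 70 regroupings of 4 against 4 libraries (scipy 1.17.1, Python 3.11.15, pandas 2.3.3, matplotlib 3.10.9). Coordinates and promoters are RefSeq's on GRCm38.p6. Names, exon lengths, GC content (98.7% of tested genes) and overlaps are GENCODE vM39's, matched by identifier for 51477 of 55450 genes. Members and lists were chosen with earlier results of these data known. All members could be named, as could any gene of the lists, first those with the 3 largest rises and falls to 2 wks in the partner lists. For each member the 2 most alike genes were listed, out of those whose log2 CPM averaged 3 or more, except that 1 of them is not reported here.

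Alternatives were total-count, upper-quartile and DESeq2 size-factor scaling, leaving out the 20 most abundant and mitochondrial genes, no filter, a minimum of 10 counts per library, the DESeq2 1.42.0 test, a replicate block, only the 8 libraries compared, removal of each library's trend over GC content or transcript length, and each library left out. Ratios with these trends removed and the fit without the 2 E18.5 libraries with most adipocyte RNA were added after seeing the data. The procedure was tested on simulated data with 200 genes changed 2-fold at a dispersion of 0.05, less spread than in these data. edgeR called 136 of the 200 with 9 false calls, and DESeq2 149 with 22. Smaller changes were not simulated, nor were GC trends of libraries or a shift of counts to the most abundant genes. The simulation therefore does not bear on the choice of scale or on the GC correction. In all 18 pairs replicates differed by more than counting error (chi-square per degree of freedom 34.3 to 577). Intervals of counting error are not given, since the spread between mice exceeds it.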

Additional observations from a re-analysis of the deposited data

Results flagged for a closer look

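In 3 of 60 sets of 4 libraries, each a member or a ratio at an age, the highest library stood apart from the others of its age by Dixon's criterion, and about 3 are reached by chance at 1 in 20. All 3 concern E18.5 replicate 2. *Cavin3* was at 13.4 CPM there and at 6.03 to 6.51 CPM in the other libraries of that age. The log2 ratio of *Cav3* to *Cav1* counts was -1.70, and that of *Ehd2* to *Cav1* was -1.14. This library also had the highest fibre, fibroblast, mural cell, myoblast, Schwann cell, cartilage and bone, and epidermis marker sums of its age. Its endothelium, adipocyte and red blood cell sums were not the highest. Its GC skew was -0.12 where the others had -1.84 to -0.72. The part of these sums and of the skew in the 3 values was not tested.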

How the results depend on the processing

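Member counts from E18.5 to 2 wks (5 called, 5 higher, 0 lower) became 2 higher under upper-quartile scaling, and 3 in DESeq2, with at least 10 counts in every library and without the 2 E18.5 libraries richest in adipocyte RNA. With libraries scaled to total counts there were 0 higher and 5 lower, with the GC trend removed 3 higher and 2 lower, and with the length trend removed 1 lower. From E18.5 to 7 wks total counts gave 10 lower, and 1 was higher (*Cav2*) with the GC trend removed or without those 2 libraries. For the contrast of the intervals (3 called) both trend removals gave 5, all lower for GC and 1 of them higher for length, and total counts gave 1 higher. Leaving out single libraries gave 2 to 5 called to 2 wks (2 without E18.5 replicate 1), 3 to 5 from 2 to 7 wks (3 without 7 wks replicate 4), 0 to 1 higher from E18.5 to 7 wks and 3 to 5 for the contrast (5 without E18.5 replicate 2).

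Signs turned as follows, and the cause was not tested. Under total counts the changes to 2 wks were *Cav2* -0.31, *Cav3* -0.20, *Cavin1* -0.74, *Cavin2* -0.57, *Ehd1* -0.30 and *Ehd2* -0.34, from 2 to 7 wks *Cavin4* -0.016, from E18.5 to 7 wks *Cav2* -0.76, *Cav3* -0.91, *Cavin4* -0.97 and *Ehd1* -0.99, and the contrast of *Cav1* 0.034. With the GC trend removed they were, to 2 wks, *Cav1* 0.33, *Cav3* -0.071, *Cavin1* -0.93, *Cavin4* 0.078, *Ehd1* -0.30, *Ehd2* -0.12, from E18.5 to 7 wks *Cav3* -0.24, *Cavin2* 0.22 and *Ehd1* -0.39, and the contrasts of *Cavin1* 0.41 and *Ehd1* 0.21. Of the ratios, with the GC trend removed, the sign turned to 2 wks for *Cav3* to *Cav1* (-0.40), *Cavin4* to *Cavin1* (1.01), *Cavin1* to *Cav1* (-1.26), *Cavin4* to *Cav3* (0.15) and *Ehd2* to *Cav1* (-0.45), after 2 wks for *Cavin2* to *Cavin1* (-0.05) and *Cavin1* to *Cav1* (0.21), and from E18.5 to 7 wks for *Cavin1* to *Cav1* (-1.05), *Cavin4* to *Cav3* (0.54, and 0.23 with the length trend removed), *Ehd2* to *Cav1* (-0.73) and *Ehd2* to *Ehd4* (-0.13). With the length trend removed the members that turned were *Cav3* -0.14 and *Cavin1* -0.11 to 2 wks, and *Cav3* -0.37, *Cavin2* 0.019 and *Cavin4* -0.14 to 7 wks. Without the 2 E18.5 libraries richest in adipocyte RNA, *Cav1* changed by 0.21 to 2 wks and *Cavin2* by 0.12 from E18.5 to 7 wks. With single libraries left out, uncalled changes crossed 0 for *Cav1* (-0.19 to 0.030), *Cavin4* (-0.11 to 0.069) and *Ehd4* (-0.096 to 0.081) to 2 wks, *Cav2* (-0.23 to 0.043) from 2 to 7 wks, and *Cavin2* (-0.17 to 0.13) and *Cavin3* (-0.49 to 0.17, highest without E18.5 replicate 2) from E18.5 to 7 wks.

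Replicate numbers are in the labels, which do not say that they pair the mice. Log2 CPM values were taken as deviations from the mean of their age and correlated between libraries of different ages. In these deviations, same-numbered libraries correlated at -0.099 to 0.23 (median 0.022, other pairs -0.011), and 7 of 12 libraries correlated best with their own number. Whether libraries of the same number share a source of spread was not tested. With the replicate block 5 members were called to 2 wks, 4 from 2 to 7 wks (*Cav1*, at -0.60, not called), 4 from E18.5 to 7 wks and 4 for the contrast (*Cav3*, at -1.22, called). Leaving out 1 of 4 libraries cannot move a ratio change by more than the spread between mice, so that criterion could not fail. Over single omissions, the uncalled change of *Cav3* to *Cav1* crossed 0 from 2 to 7 wks (-0.0019 to 0.34). From E18.5 to 7 wks so did those of *Cavin1* to *Cav1* (-0.14 to 0.19), *Cavin4* to *Cav3* (-0.40 to 0.15) and *Ehd2* to *Cav1* (-0.0019 to 0.23).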

Other observations

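After TMM scaling, some partners of EHD proteins took the opposite course to *Ehd2* and *Cavin3*. Of the 14 tested genes of the caveola neck and of EHD partners, 4 contrasts of the intervals were called higher and 3 lower. Among all tested genes 16.8% were higher and 21.6% lower. *Ehbp1*, which links EHD proteins to actin, had 37.1 ± 6.48 CPM at E18.5 (SD, n = 4), 16.2 ± 0.52 CPM at 2 wks and 23.1 ± 2.40 CPM at 7 wks. It was lowest at 2 wks with no overlap between the ages. The change after 2 wks minus the change before it was 1.70 (edgeR adjusted p = 0.000313). *Rab11fip2*, a Rab11 effector of recycling endosomes, had 24.9 ± 5.52, 11.1 ± 0.26 and 19.1 ± 5.60 CPM, and its contrast was 1.96 (adjusted p = 0.00155). Scaled to total counts, *Ehbp1* averaged 61.8, 14.2 and 15.9 CPM in age order and *Rab11fip2* 41.4, 9.69 and 13.2 CPM. The later rises were smaller on that scale, where *Ehd2* changed by -0.34 (log2) to 2 wks. The part of the GC trend in these courses was not tested. The contrasts of *Snap29* and *Rbsn* were called in the same direction (0.88 and 0.77, adjusted p = 0.0303 and 0.0185). Their changes to 2 wks were not called (-0.19 and -0.30, edgeR adjusted p = 0.328 and 0.0611), and both rose afterwards (0.69 and 0.48). *Pacsin3*, *Ehbp1l1* and *Dnm2* had contrasts of -2.27, -1.30 and -1.16, all called lower. These followed rises to 2 wks with no called change afterwards (0.21, 0.23 and -0.15, edgeR adjusted p = 0.625, 0.350 and 0.526).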
